A study of Mus musculus with 8 samples.

Results

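Complement is a cascade of plasma proteins that tags particles for uptake, draws in leukocytes and lyses membranes. C1q is its recognition molecule in the classical pathway: chains A, B and C, from separate genes, assemble into a bouquet of collagen-like stalks and globular heads that bind antibody complexes and dying cells. Properdin, the product of Cfp, stabilises the convertase of the alternative pathway, and the fragments C3a and C5a act on leukocytes through their own receptors. Macrophages are a main source of C1q, whereas most other components come chiefly from the liver.

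The genes described are C1qa, C1qb, C1qc, Cfp, C3, C4b, Cfb, C3ar1 and C5ar1, chosen by name, with the probe sets found through the gene symbols of the platform annotation. Of the 9 genes, 8 were measured, among 19938 genes in all, each by 1 probe set that carries no other symbol. C3 was not analysed here.

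Macrophages drawn into the peritoneum of C57BL/6J mice by thioglycollate were harvested 5 days after the injection and cultured in medium with 10% serum. One group of 4 cultures received acetylated low-density lipoprotein (acLDL), which scavenger receptors take up and which loads the cells with cholesterol. The other 4 cultures had the same medium without it and are called unloaded. The sample protocol gives 20 µg/mL for 3 days and the series text 50 µg/mL for 2 days, so dose and time are not settled. The 4 arrays of a condition are described as independent biological replicates, without a record of which mice went into which culture, and p-values measure the spread between these cultures. Values are log2 levels on whole-transcript arrays, and a level belongs to its own probe set, so that differences, and not levels, are compared between genes. Marker levels are summed, ordered and set beside a background guide only as signal of their probe sets.

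Levels on the 8 arrays ran from 2.63 to 14.27. Arrays of the same group correlated at 0.994 to 0.997 over the genes, and arrays of different groups at 0.989 to 0.991 (Pearson). A second principal component with 18% of the variance set unloaded arrays 1 and 4 apart from unloaded arrays 2 and 3, so results below are also given without each of these pairs where that changes a call or moves a called value of a named gene by over 1.5 times. Macrophage markers were present, with Cd68 at 12.85 ± 0.04 on acLDL and 12.93 ± 0.03 on unloaded arrays (SD, n = 4). As a guide to background, 95% of 1027 olfactory receptor genes had a mean level below 6.12, and all 8 measured complement genes lay above it.

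The comparison asked which genes stood at other levels in acLDL-loaded than in unloaded macrophages. The 3 C1q chains and properdin rose by more than 2.6-fold, the C5a receptor gene rose by 1.65-fold, and factor B rose slightly. C4b and the C3a receptor gene did not pass. In limma with Benjamini-Hochberg adjustment over all genes, 6 of the 8 passed at an adjusted p under 0.05, against 23.3% of all genes tested. All 6 were higher with acLDL, against 12.9% of all genes, and 0 were lower, against 10.5%. A rise of at least 1.5-fold was seen in 5 of the 8, against 1.33% of all genes. The same 5 had every acLDL array above every unloaded array, against 14.0% of all genes. The genes were chosen with earlier results of these arrays known, so these counts describe them and are not independent support. The median difference was 1.06 over the 8 genes and -0.00 over all genes (log2, acLDL minus unloaded).

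**Figure D1:**
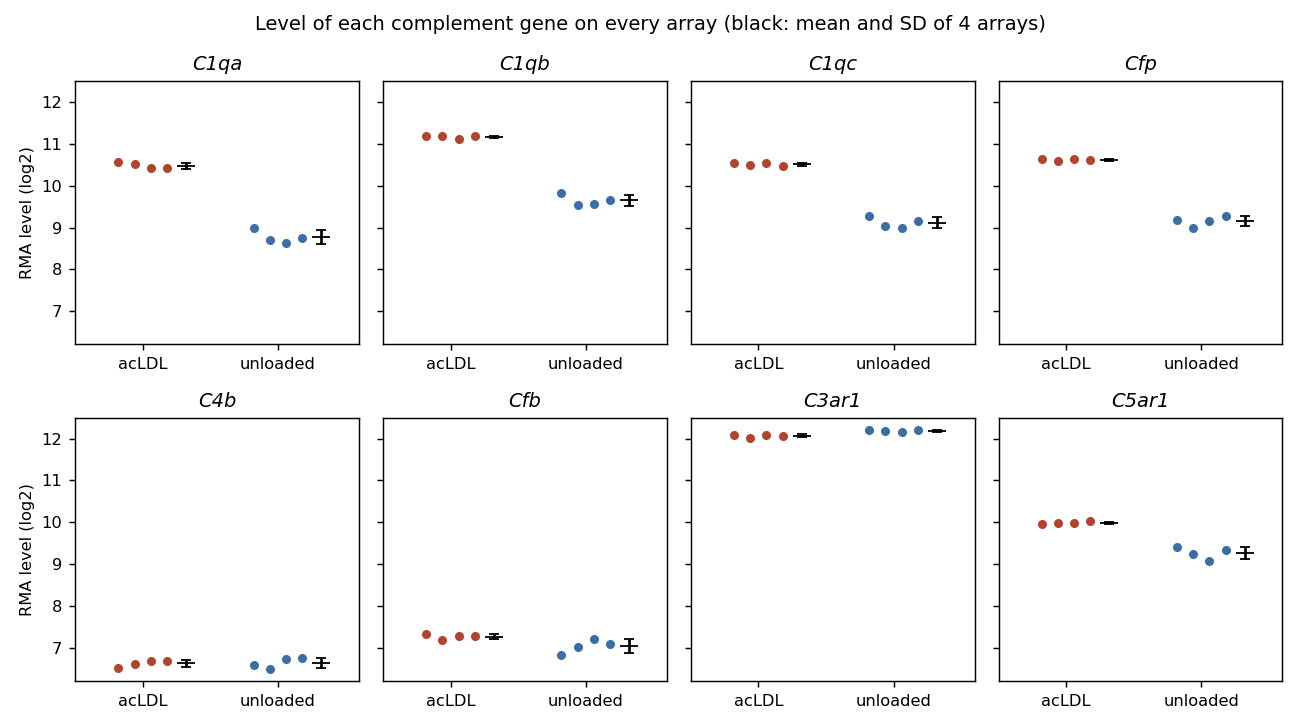
Level (log2) of the 8 measured complement genes on each of the 4 acLDL (red, left) and 4 unloaded (blue, right) arrays, with the mean and SD in black. C1qa, C1qb, C1qc, Cfp and C5ar1 lie higher on every acLDL array, C3ar1 lies lower on every acLDL array by at least 0.06, and Cfb and C4b overlap.

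C1qa encodes the A chain of C1q. It stood at 10.55, 10.51, 10.42 and 10.41 on the acLDL arrays, against 9.0, 8.71, 8.62 and 8.76 on the unloaded arrays (replicates 1 to 4, log2). Every acLDL array was above every unloaded one, by a gap of 1.41. The difference was 1.70 ± 0.08 (log2, SE; limma adjusted p = 1.06e-08), or 3.25-fold, the fifth largest rise of the 19938 genes tested. In RNA from whole cultures, more cells that express a gene and more RNA per cell cannot be told apart.

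C1qb encodes the B chain. Its levels were 11.18, 11.18, 11.12 and 11.18 with acLDL, against 9.81, 9.54, 9.56 and 9.66 without (log2). The acLDL arrays lay within 0.06 of each other and the unloaded arrays within 0.27, with a gap of 1.31 between the groups. The difference was 1.52 ± 0.07 (log2, SE; limma adjusted p = 8.40e-09), or 2.87-fold. C1qc encodes the C chain. It stood at 10.55, 10.49, 10.54 and 10.47 on acLDL arrays and at 9.27, 9.03, 9.0 and 9.16 on unloaded arrays (log2). The groups were 1.20 apart, and the difference was 1.40 ± 0.07 (log2, SE; limma adjusted p = 1.79e-08), or 2.63-fold. C1qb and C1qc had the sixth and the ninth largest rise. Unloaded array 1 was the highest unloaded array for each of the 3 chains, by 0.11 or more.

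The chains did not rise by equal amounts. On each array the level of one chain was subtracted from that of another, which cancels any effect shared by all probe sets of an array, and the group means of this within-array value were compared by a two-sided exact permutation test over the arrays. For C1qa minus C1qb the value was -0.69 ± 0.06 on acLDL and -0.87 ± 0.06 on unloaded arrays (log2, SD, n = 4), so that C1qa rose by 0.18 more (exact p = 0.0286). C1qa minus C1qc was -0.04 ± 0.07 with acLDL and -0.34 ± 0.06 without, a change of 0.30 (log2, SD, n = 4; exact p = 0.0286). C1qb minus C1qc was 0.65 ± 0.06 with acLDL and 0.53 ± 0.03 without, a change of 0.12 (log2, SD, n = 4; exact p = 0.0286). The 4 pairs tested were these and a pair of receptors given further on, whose p was fixed by the separation of its single genes. All had an adjusted p of 0.0286 over the 4, the smallest that 4 arrays against 4 can give. With single arrays left out, the adjusted exact p over the 4 pairs was 0.0571 for C1qb minus C1qc without any 1 of the unloaded arrays. For the other 3 pairs it was 0.0571 without unloaded array 3 or 4, and 0.0286 to 0.0381 otherwise. Each probe set has its own response to RNA amount, and its part in these unequal rises was not tested.

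**Figure D2:**
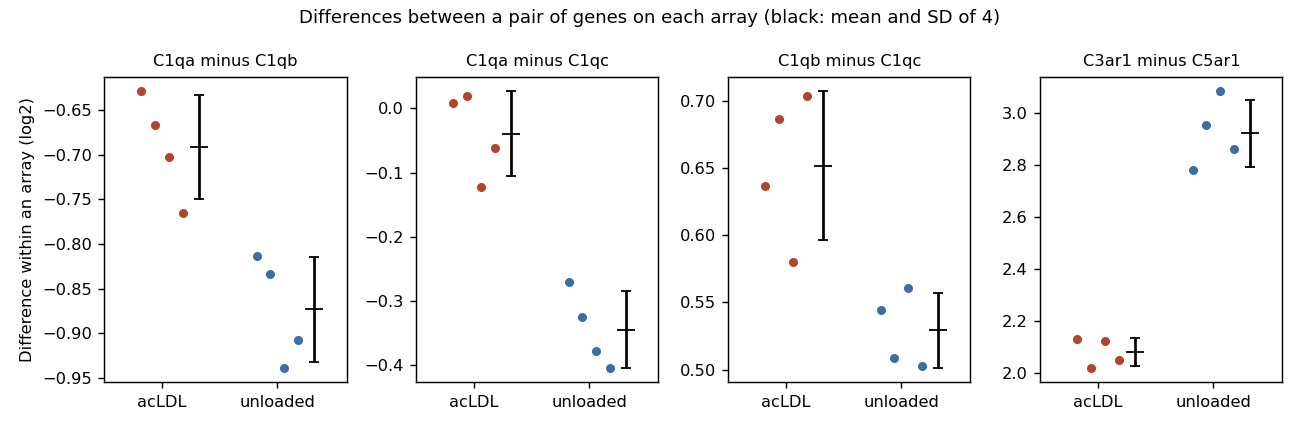
Within-array difference (log2) between a pair of genes on 4 acLDL (red, left) and 4 unloaded (blue, right) arrays, with the mean and SD in black and a separate vertical scale in each panel. The groups do not overlap in any of the 4 panels, and C1qa minus C1qc differs most between groups among the C1q pairs, by 0.30.

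The 3 C1q genes are immediate neighbours on chromosome 4, in the RefSeq order C1qb, C1qc, C1qa (assembly GRCm38.p6). The 2 nearest measured genes on either side gave no call. Before the cluster, Lactbl1 stood at 6.28 ± 0.23 on acLDL and 6.24 ± 0.13 on unloaded arrays and Tex46 at 6.68 ± 0.03 with acLDL and 6.67 ± 0.21 without (log2, SD, n = 4). After it, the ephrin receptor gene Epha8 stood at 6.39 ± 0.10 with acLDL and 6.32 ± 0.24 without, and Zbtb40, a zinc finger gene, at 7.49 ± 0.10 with acLDL and 7.63 ± 0.14 without (log2, SD, n = 4). None of these 4 passed (limma adjusted p of 0.240 to 0.996), beside 23.3% of all genes called, and 4 genes are too few to set against that share. Their 95% intervals reached from -0.31 to 0.29, which does not hold any of the C1q differences. Lactbl1, Epha8 and Tex46 lay little above the background guide of 6.12. RMA shrinks differences of such dim genes, so their values tell little about a change in their RNA.

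**Figure D3:**
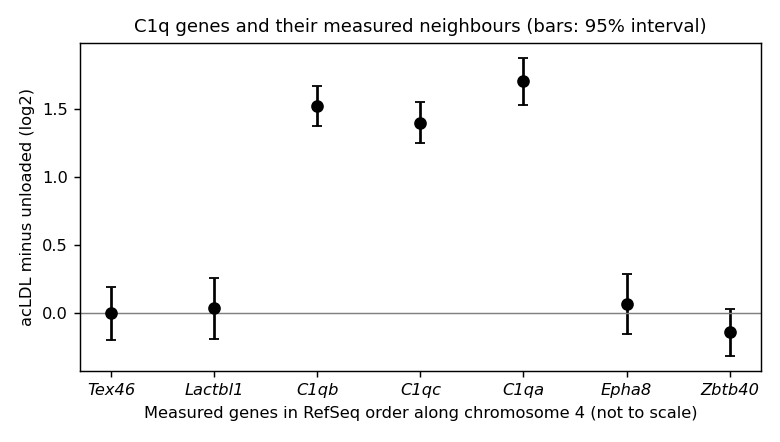
Difference between acLDL and unloaded arrays (log2, acLDL minus unloaded) with its 95% interval for the C1q genes and the 2 nearest measured genes on either side, in gene order and not to scale. The 3 C1q genes lie between 1.40 and 1.70, and the 4 neighbours between -0.14 and 0.07. Of the neighbours, Lactbl1, Epha8 and Tex46 are little above the background guide.

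Cfp, the properdin gene, lies on the X chromosome. Its levels were 10.65, 10.58, 10.63 and 10.61 on acLDL arrays, against 9.18, 8.99, 9.16 and 9.28 on unloaded arrays (log2). The groups were 1.31 apart. The difference was 1.47 ± 0.07 (log2, SE; limma adjusted p = 9.28e-09), or 2.77-fold, the seventh largest rise. Here all of the 4 nearest measured genes but Elk1 passed, each of them higher, beside 23.3% of all genes called and 12.9% higher. Uxt, a prefoldin-like chaperone gene after Cfp, rose by 0.69 ± 0.08, and before Cfp the synapsin gene Syn1 rose by 0.62 ± 0.06 and Timp1, an inhibitor of matrix proteases, by 0.33 ± 0.08 (log2, SE; limma adjusted p = 3.29e-05, 1.13e-05 and 0.00893). The Timp1 value was 0.20 without unloaded arrays 2 and 3 and then did not pass (limma adjusted p = 0.0816). Elk1, a transcription factor gene between Cfp and Uxt, differed by 0.15 ± 0.06 and did not pass (limma adjusted p = 0.120). The Cfp interval, 1.32 to 1.61, lies above the intervals of these 4 neighbours, the highest of which ends at 0.86.

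The promoters of genes that rose together are shown for a look at the letters they share. Windows of 250 bases before to 50 after the start site, from RefSeq (GRCm38.p6), were given for C1qb, C1qc, Cfp, C3, C3ar1 and C5ar1, 6 of the 9 genes. Capitals mark matches to any of 5 motifs searched on both strands, and each window reads 5′ to 3′ on the strand of its gene, the minus strand for all 3.
C1qb, chr4:136886151-136886450: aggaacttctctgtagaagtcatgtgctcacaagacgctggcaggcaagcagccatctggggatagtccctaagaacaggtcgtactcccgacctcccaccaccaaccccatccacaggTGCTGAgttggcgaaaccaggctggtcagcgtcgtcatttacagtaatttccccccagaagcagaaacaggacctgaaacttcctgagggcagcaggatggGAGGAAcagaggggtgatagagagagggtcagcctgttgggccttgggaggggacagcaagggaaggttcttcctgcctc
C1qc, chr4:136892865-136893164: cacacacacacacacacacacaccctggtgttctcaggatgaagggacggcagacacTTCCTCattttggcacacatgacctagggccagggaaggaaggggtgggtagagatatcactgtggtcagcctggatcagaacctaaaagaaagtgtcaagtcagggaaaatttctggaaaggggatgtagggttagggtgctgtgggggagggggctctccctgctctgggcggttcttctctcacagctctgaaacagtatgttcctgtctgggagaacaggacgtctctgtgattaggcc
Cfp, chrX:20931506-20931805: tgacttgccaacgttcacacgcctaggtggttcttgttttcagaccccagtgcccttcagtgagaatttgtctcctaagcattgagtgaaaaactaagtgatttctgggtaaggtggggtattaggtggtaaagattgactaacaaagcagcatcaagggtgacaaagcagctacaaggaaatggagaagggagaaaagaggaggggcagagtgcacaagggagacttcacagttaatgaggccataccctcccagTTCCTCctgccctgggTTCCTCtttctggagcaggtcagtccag

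The motifs were GAGGAA, a core bound by the myeloid factor PU.1; TGCTGA, a half-site of MAF factors; GAAANNGAAA, a core of the interferon-stimulated response element; TCACNCCAC, an element of the sterol factor SREBP; and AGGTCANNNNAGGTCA, a direct repeat bound by the liver X receptors. GAGGAA or its complement was found in all 3 windows printed, at position -30 in C1qb, -193 in C1qc and 7 and 23 in Cfp, counted from the start site as 1 with no position 0. It was in 3 of the 6 windows and in 28.3% of the 32851 windows of the whole table. The window of C5ar1, a gene that also rose, is not printed and did not hold GAGGAA, nor did those of C3 and C3ar1. TGCTGA or its complement was in 4 of the 6, those of C1qb, C3, C3ar1 and C5ar1, and in 19.5% of the table. It began at -131 in C1qb and at -17 in C5ar1, and C3ar1, which did not rise, held it at -144. The other motifs were in 0 of the 6 windows and in 3.44%, 1.24% and 0.0152% of the table, in the order named. Matches of this length are frequent, none of the searched motifs overlapped another in these windows, and a match is a description of the letters, not a site.

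C4b encodes complement C4, which C1 cleaves to build the classical convertase. It stood at 6.52, 6.62, 6.69 and 6.70 on acLDL arrays and at 6.59, 6.50, 6.73 and 6.77 on unloaded arrays (log2), and the groups overlapped. The difference was -0.02 ± 0.07 (log2, SE; limma adjusted p = 0.899), with a 95% interval of -0.18 to 0.14. The value is uncertain because mice carry a near-identical gene, C4a, whose RNA the C4b probes may also bind. C4a itself was at 6.07 ± 0.13 with acLDL and 6.12 ± 0.14 without (log2, SD, n = 4; limma adjusted p = 0.723), at the level of background.

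Cfb encodes factor B, the protease of the alternative convertase. Its levels were 7.32, 7.20, 7.28 and 7.29 with acLDL, against 6.82, 7.01, 7.23 and 7.09 without (log2). The lowest acLDL array lay below unloaded array 3, so the groups overlapped. The rise was 0.24 ± 0.08 (log2, SE; limma adjusted p = 0.0470), or 1.18-fold. Its call was lost in 7 of 8 fits that left out 1 array, all but that without unloaded array 3, with adjusted p of 0.0122 to 0.116 over the 8, and after repeated quantile normalisation (adjusted p = 0.103). Without unloaded arrays 1 and 4 the difference was 0.15 (limma adjusted p = 0.181). C2, the classical counterpart that lies beside Cfb on chromosome 17, lay under the background guide. It stood at 5.92 ± 0.15 on acLDL and 5.97 ± 0.08 on unloaded arrays (log2, SD, n = 4; limma adjusted p = 0.662).

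C5ar1 encodes the receptor through which the fragment C5a attracts and activates leukocytes. It stood at 9.95, 9.99, 9.97 and 10.02 on acLDL arrays, against 9.41, 9.23, 9.07 and 9.35 on unloaded arrays (log2). The acLDL arrays were 0.53 above the highest unloaded array. The difference was 0.72 ± 0.08 (log2, SE; limma adjusted p = 1.98e-05), or 1.65-fold, rank 134 among the rises. C5ar2, the second C5a receptor, was at 7.34 with acLDL and 7.35 without, a difference of -0.01 ± 0.06 (log2, SE; limma adjusted p = 0.907).

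C3ar1 encodes the receptor of C3a. Its levels were 12.08, 12.01, 12.09 and 12.07 with acLDL, against 12.20, 12.19, 12.15 and 12.21 without (log2). Every acLDL array was below every unloaded array, by 0.06. The difference was -0.12 ± 0.06 (log2, SE), which did not pass in limma (adjusted p = 0.143, unadjusted p = 0.0489) and passed with a prior that follows the level of the gene (adjusted p = 0.00475). C3ar1 minus C5ar1 on the same array was 2.08 ± 0.06 with acLDL and 2.92 ± 0.13 without (log2, SD, n = 4), a change of -0.84 (exact permutation p = 0.0286). Each gene already separated the groups, in opposite directions. This p therefore had to be the smallest possible, and it adds nothing to the results of the single genes.

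**Figure D4:**
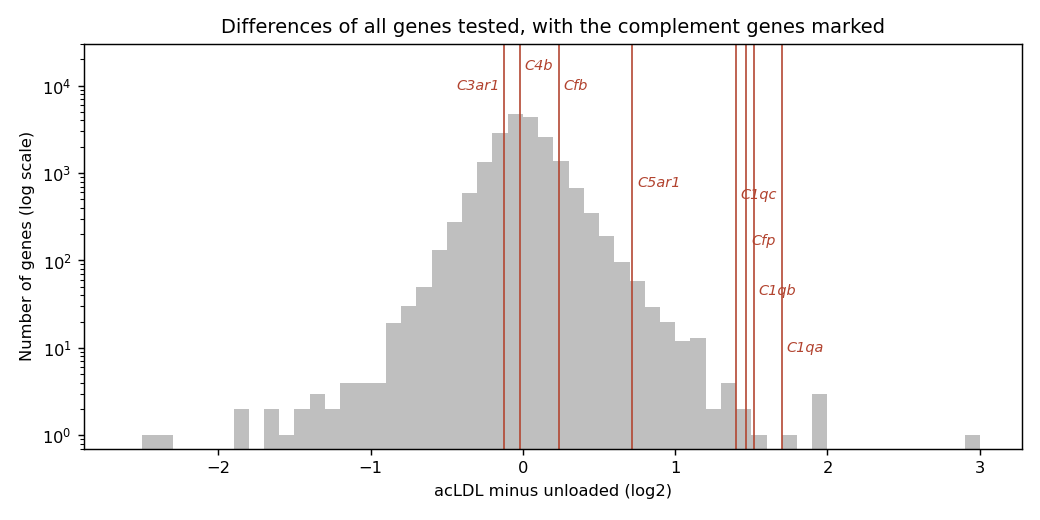
Histogram of the difference between acLDL and unloaded arrays (log2, acLDL minus unloaded) for the 19938 genes tested, with the number of genes on a log scale and red lines at the 8 complement genes. C1qa, C1qb, Cfp and C1qc stand in the upper tail at 1.70, 1.52, 1.47 and 1.40, C5ar1 at 0.72, and Cfb, C4b and C3ar1 near the middle.

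A wider list of 49 complement genes, ordered by role, held 45 that were measured. In limma 8 of these rose and 4 fell, while 33 did not pass. That is 26.7% called and 17.8% higher, beside 23.3% and 12.9% of all genes. The median difference was 0.00, beside -0.00 over all genes (log2). Among the 37 measured genes of this list other than the 8 above, 2 rose and 4 fell, while 31 did not pass, with a median of -0.04. Of these 37, 16.2% were called and 5.41% were higher, both below the shares of all genes. Only 14 of the 37 lay above the background guide, beside 11653 of the 19938 genes. The lower shares therefore tell little about genes at background, whose differences RMA shrinks. The 4 falls over the whole list became 1 to 3 when single arrays were left out, with 1 without acLDL array 1, 3 or 4 or unloaded array 4. Terminal components, which form the lytic pore, gave 0 calls among 7 measured genes, with 0 of 7 above the background guide of 6.12. At an unadjusted p under 0.05 the count among them was also 0, the smallest p being 0.0853, for C8g.

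Of the other C1 genes, C1s1, C1s2 and C1ra were measured and did not rise, and C1rb was not analysed here. C1s1, a C1s protease gene, stood at 7.28, 7.32, 6.93 and 7.14 on acLDL arrays, against 7.64, 7.52, 7.29 and 7.64 on unloaded arrays (log2). It fell by 0.36 ± 0.10 (log2, SE; limma adjusted p = 0.0170), although unloaded array 3 overlapped the acLDL arrays. This call was lost when acLDL array 3 was left out (adjusted p = 0.0531), when unloaded array 4 was (adjusted p = 0.0530) and when unloaded arrays 1 and 4 were (adjusted p = 0.148). Its copy C1s2 was at 6.69 with acLDL and 6.87 without and did not pass (limma adjusted p = 0.180), and probes may not tell the copies apart. C1ra, a C1r protease gene, was at 5.03 in both groups, under the background guide.

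C1s, C1r and C4 are also made by fibroblasts, so markers of fibroblasts and mesothelial cells are given beside them. Of 10 measured markers 1 rose and 2 fell, beside 12.9% and 10.5% of all genes. Above the background guide lay 7 of the 10, led by Dcn at 10.48 ± 0.09 with acLDL and 10.74 ± 0.13 without (log2, SD, n = 4). Col1a2, with the smallest p, fell by 0.37 (log2; limma adjusted p = 0.00366). Lum, Msln and Krt19 lay under the guide. The summed level of the list, on the linear scale, was 5084 to 5677 on acLDL and 5348 to 6558 on unloaded arrays. The part of these cells in the C1s1 and C4b values was not tested.

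In the lectin pathway, whose ficolins and collectins recognise sugars, 0 of 8 genes rose and 2 fell, which is 25% called beside 23.3% of all genes. Fcnb, ficolin B, stood at 6.14 ± 0.07 on acLDL and 6.33 ± 0.07 on unloaded arrays and fell by 0.19 (log2; limma adjusted p = 0.0448). Colec10, a collectin mainly of liver, stood at 5.65 ± 0.07 on acLDL and 5.84 ± 0.05 on unloaded arrays and also fell by 0.19 (log2; limma adjusted p = 0.0421), below the background guide. These calls were fragile: the Fcnb call was lost in 12 and the Colec10 call in 11 alternative fits, with adjusted p of up to 0.149 and 0.146. Without unloaded arrays 1 and 4 the Colec10 call was lost (adjusted p = 0.0892), and without unloaded arrays 2 and 3 both were (adjusted p = 0.149 for Fcnb and 0.0811 for Colec10). Fcna, ficolin A, at 8.08 with acLDL and 7.91 without, did not pass (limma adjusted p = 0.165).

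Of 11 measured regulators, which keep complement from host cells, 0 rose and 1 fell, which is 9.09% called beside 23.3% of all genes. Only 4 of the 11 lay above the background guide. Cr1l, the mouse membrane regulator Crry, stood at 8.02, 8.16, 7.87 and 7.96 on acLDL arrays, against 8.44, 8.19, 8.05 and 8.43 on unloaded arrays (log2). It fell by 0.28 ± 0.09 (log2, SE; limma adjusted p = 0.0447), although unloaded array 3 overlapped the acLDL arrays, by 0.12 without unloaded arrays 1 and 4 (adjusted p = 0.352), and by 0.43 without unloaded arrays 2 and 3 (adjusted p = 0.00390). Over all its alternatives the adjusted p ran from 0.00390 to 0.352. Leaving out any acLDL array but array 2, or any unloaded array but array 3, also lost the call. Clu, clusterin, and Serping1, the C1 inhibitor, differed by 0.25 ± 0.10 and 0.15 ± 0.10 and did not pass (log2, SE; limma adjusted p = 0.0947 and 0.313).

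Among 8 complement receptors 3 rose and 0 fell, beside 12.9% and 10.5% of all genes. Beside C5ar1, these were Vsig4, a macrophage receptor for C3b, and Itgam, the alpha chain of complement receptor 3. Vsig4 stood at 7.25, 7.54, 7.30 and 7.41 with acLDL, against 6.70, 6.35, 6.24 and 6.61 without (log2), and rose by 0.90 ± 0.10 (log2, SE; limma adjusted p = 3.19e-05). Itgam stood at 10.65, 10.60, 10.59 and 10.70 with acLDL, against 10.08, 9.88, 9.96 and 10.09 without (log2), and rose by 0.63 ± 0.07 (log2, SE; limma adjusted p = 2.23e-05). The groups did not overlap in either gene. Itgb2, the beta chain that pairs with Itgam, was at 12.46 with acLDL and 12.53 without, and Itgax, the alpha chain of complement receptor 4, at 11.38 with acLDL and 11.28 without (log2). Neither passed (limma adjusted p = 0.444 and 0.270).

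**Figure D5:**
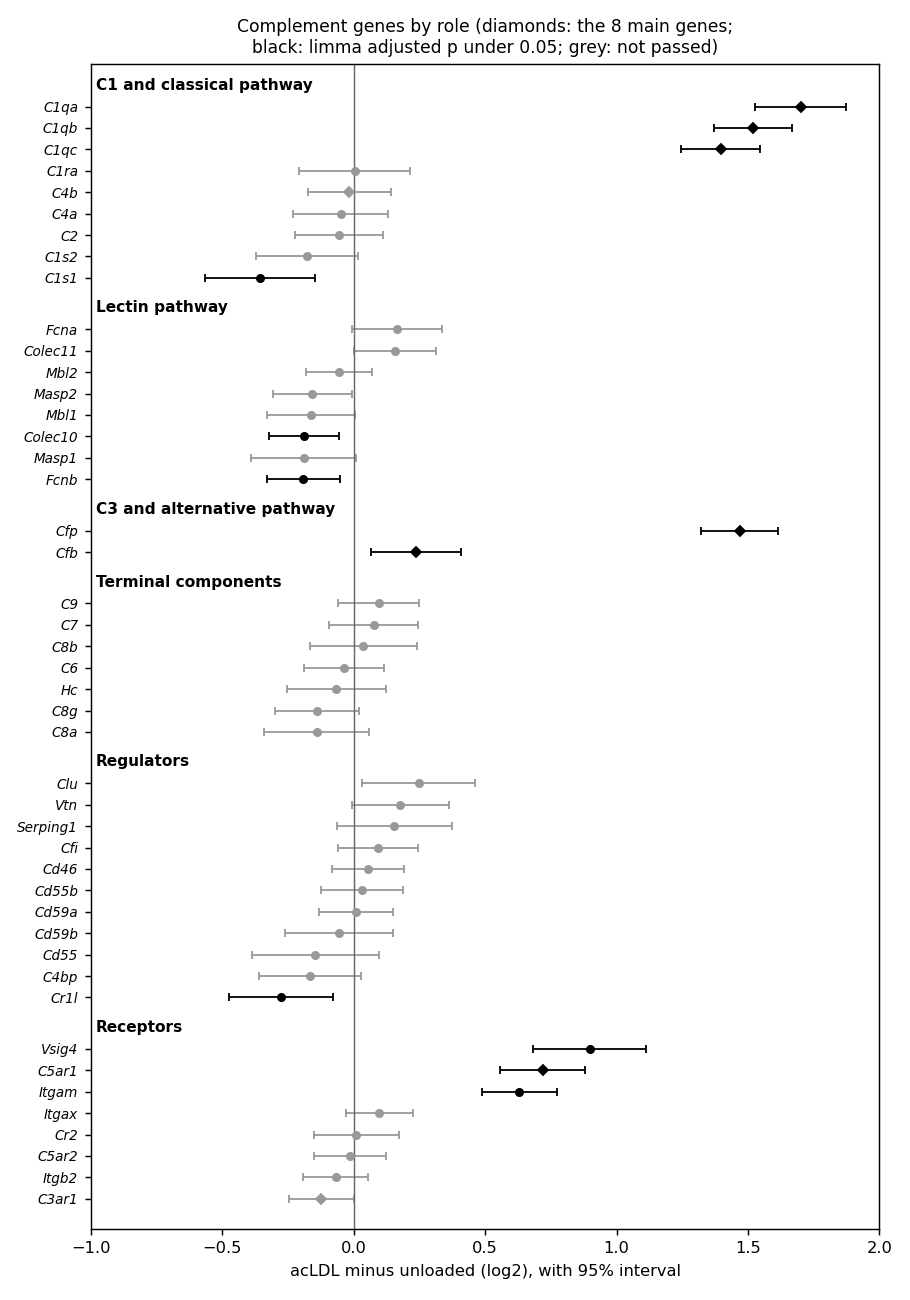
Difference between acLDL and unloaded arrays (log2, acLDL minus unloaded) with its 95% interval for the 45 measured complement genes, by role. Black marks genes with a limma adjusted p under 0.05 and diamonds mark the 8 measured genes of the main set. The C1q chains and Cfp lie beyond 1.3, and Vsig4, C5ar1 and Itgam lie between 0.6 and 1.

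The globular head of C1q belongs to a domain family, and its members outside complement were set beside it. Of 24 measured genes 5 rose and 0 fell, and 0 rose by 1.5-fold. That is 20.8% called, all of it higher, beside 23.3% called and 12.9% higher over all genes. Only 8 of the 24 lay above the background guide. The largest rises were in C1qtnf12, an adipose hormone gene, by 0.50 ± 0.07, and in the extracellular matrix genes Emilin2, by 0.40 ± 0.07, and Emilin1, by 0.30 ± 0.08 (log2, SE; limma adjusted p = 0.000118, 0.00103 and 0.0114). The Emilin1 call was lost without unloaded arrays 1 and 4 (adjusted p = 0.0952).

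Genes with a pattern most like C1qa were found by the root mean square difference over the 8 arrays between log2 values, each gene centred on its own mean. In order they were C1qb (0.104), Folr2, a folate receptor (0.119), C1qc (0.162), Cfp (0.166) and the cholesterol exporter gene Abca1 (0.166). For Cfp the nearest were C1qb (0.0831), C1qc (0.0841), the scavenger receptor gene Stab1 (0.0849), Fkbp2, a prolyl isomerase gene (0.0959), and Akr1b8, an aldo-keto reductase gene (0.162). C1qa came next, at 0.166. Fkbp2 stood at 10.55 ± 0.11 with acLDL and 9.17 ± 0.06 without, and Akr1b8 at 8.89 ± 0.11 with acLDL and 7.62 ± 0.17 without (log2, SD, n = 4). C5ar1 was 124th in likeness to C1qa, Cfb was 2741st, C4b was 10835th and C3ar1 was 14854th. This measure depends largely on the size of the difference between the groups. Among the rises C5ar1 was 134th and Cfb was 2283rd, so likeness is not independent of the rises.

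C1q, properdin, Vsig4 and C5ar1 can also differ between kinds of macrophages and other leukocytes. Resident large peritoneal macrophages have a list of their own, in which 4 of 11 measured markers rose and 0 fell, beside 12.9% and 10.5% of all genes. Its summed level on the linear scale was 2523 to 2715 on acLDL and 1076 to 1155 on unloaded arrays. Such a sum weighs the brightest markers most. Of the 11 markers 7 did not pass, and the median difference over the list was 0.14 (log2). The list holds Folr2, at 9.95 ± 0.08 with acLDL and 8.02 ± 0.12 without, and Cd5l, at 9.51 ± 0.07 with acLDL and 6.58 ± 0.32 without (log2, SD, n = 4). Gata6, the defining transcription factor of these cells, stood at 8.31 ± 0.10 with acLDL and 8.09 ± 0.10 without (log2, SD, n = 4; limma adjusted p = 0.0390), a call that was lost in 8 of 19 alternative fits, among them that without unloaded arrays 2 and 3 (adjusted p = 0.123). Timd4, Tgfb2, Prg4 and Aspa lay under the background guide. Icam2, Alox15 and Garnl3 lay above it and did not pass (limma adjusted p = 0.551, 0.393 and 0.185). Of 8 measured general macrophage markers 4 rose and 1 fell, beside 12.9% and 10.5% of all genes. The rises were led by Fcgr1 (0.71, log2; limma adjusted p = 9.57e-06). The sum of the 8 markers was 21773 to 22563 with acLDL and 20253 to 21674 without. The part of a changed macrophage makeup in the C1q and Cfp values was not tested.

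Most markers of other leukocytes lay under the background guide. Of 11 neutrophil markers 10 lay under the guide, 0 rose and 3 fell, beside 12.9% and 10.5% of all genes. The brightest was S100a8, at 6.16 with acLDL and 6.19 without. Ly6g, under the guide, fell by 0.32 (log2; limma adjusted p = 0.0130), or by 0.20 without unloaded arrays 2 and 3 (adjusted p = 0.118). The summed linear level of the neutrophil list was 431 to 456 on acLDL and 469 to 490 on unloaded arrays. B cell and eosinophil lists had 0 calls, beside 23.3% of all genes called. They had 0 markers above the guide, with Cd79b and Ear6 the brightest. Among 5 dendritic cell markers, with 0 calls, only Zbtb46 exceeded the guide, at 6.60 in both groups. Among 6 mast cell markers Tpsb2 was the brightest, at 6.19 with acLDL and 6.40 without, and Cma1, under the guide, fell by 0.27 (log2; limma adjusted p = 0.00678). Among 6 T cell markers 2 lay above the guide, Cd3e at 6.35 with acLDL and 6.47 without, which did not pass, and Cd28. Cd28 was the brightest and fell by 0.32, to 7.60 with acLDL against 7.92 without (log2; limma adjusted p = 0.00791).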

How the data were processed

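Total RNA from 8 macrophage cultures was biotin-labelled and run on Affymetrix arrays, as the labels' protocols state. The authors deposited log2 levels, which the submitters' processing notes credit to RMA, with no version. RMA corrects background and matches the arrays to each other. It shrinks differences of dim genes, and matching the arrays hides a change shared by all genes.

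Of 35557 deposited probe sets, 21789 had 1 gene symbol, 1621 had several and 12147 were unnamed. RefSeq (GRCm38.p6) held 21698 of the 21789 and changed 0 symbols. The brightest probe set stood for a gene, which left 19938 genes. Differences are acLDL minus unloaded, fitted across all genes with limma 3.58.1 in R 4.3.3 (lmFit, eBayes, no block), with Benjamini-Hochberg adjustment and a threshold of 0.05. Within-array pairs were compared by exact permutation. On simulated arrays the limma step found 88% of 50 true 1.5-fold changes and 98% of 50 true 2-fold changes, with 8 false calls among 19938 genes. The simulated noise was independent between genes, without the array pattern of the second principal component. The simulation therefore cannot give the share of false calls in these data.

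The members, lists and tests were chosen with earlier results of these data known. Named were all members, up to 4 passing genes of each complement role (3 of the C1q-domain list), the brightest marker and that with the smallest p of each cell type, the 5 genes most like C1qa and Cfp, and the 2 nearest measured genes on either side of C1q and Cfp. Other genes named were chosen after their values were seen. Precision is limited by the 4 arrays per group, and the median SE of a difference was 0.074. Figures used matplotlib 3.10.9 in Python 3.11.15.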

Additional observations from a re-analysis of the deposited data

Results flagged for a closer look

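Of 42 groups of 4 arrays examined, covering the complement genes, the genes named from the lists and the within-array pairs, 1 held an array far from the others, where chance gives about 5%. It was C1qb on acLDL arrays. Array 3 stood at 11.12, below the next array at 11.18, and this gap took up 0.895 of the range of the group. The whole range was 0.06 (log2), against a difference between groups of 1.52.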

How the results depend on the processing

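C1qa, C1qb, C1qc, Cfp and C5ar1 rose and passed in all 19 alternative fits, with differences of 1.59 to 1.81, 1.43 to 1.61, 1.3 to 1.5, 1.39 to 1.54 and 0.60 to 0.83 (log2), and C4b passed in none, at -0.07 to 0.02. The 19 were a replicate block, a test of every annotated probe set, averaging over the probe sets of each gene, a filter at the olfactory 95th percentile, repeated quantile normalisation, median centring over genes or over all deposited probe sets, a trended robust prior, array weights, each array left out, and unloaded arrays 1 and 4 or 2 and 3 left out. The last 2, and centring over all deposited probe sets, were added after seeing the data. Averaging could not move the differences of the 8 genes, each of which had 1 probe set. Nor could the replicate block, the test of every annotated probe set, the filter or the trended robust prior. Such fits could change only the adjusted p. Arrays with equal replicate numbers share only a number (correlations of their deviations from the group means over genes, pair by pair, 0.11, -0.16, 0.30 and 0.14). With the replicate block 4860 genes changed, in place of 4650, C1qa differed by 1.70 and the calls of the 8 genes were as without it. It ended the call of Fcnb (adjusted p = 0.0656). Centring over all deposited probe sets turned the share of rises among changed genes to 66.8%, in place of 55.2%.

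Cfb kept its direction but not its call after quantile normalisation (0.19), centring over genes (0.22) and without unloaded arrays 1 and 4 (0.15), and ran from 0.17 to 0.30 with each array left out. C3ar1, at -0.12, passed with the trended robust prior. The count of complement genes that fell, 4, became 2 with centring over genes, 1 with centring over all deposited probe sets and 1 to 3 with each array left out, while the count that rose, 8, ran from 7 to 10. The cause of these changes was not tested. Where arrays were left out, the number of arrays was also smaller. The within-array pairs kept their direction in 13 alternatives each. Since both give the main value by construction, averaging over probe sets and the replicate block could not move the pairs. With each array left out they ran from 0.160 to 0.207 (C1qa minus C1qb), 0.285 to 0.333 (C1qa minus C1qc), 0.105 to 0.146 (C1qb minus C1qc) and -0.89 to -0.79 (C3ar1 minus C5ar1), with an adjusted exact p of 0.0286 to 0.0571. With 2 unloaded arrays or paired numbers their exact test cannot reach 0.05, so only their size was compared. Of 13 other called genes tried after seeing the data, Gata6, Timp1 and Ly6g lost their call in 8, 1 and 1 alternatives. The alternative of single-symbol probe sets only is the setting used, since no member needed a shared one.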
